A study of Mus musculus with 12 samples.

Results

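The genes described here build and load major histocompatibility complex (MHC) class I molecules. They were chosen by name, as 10 mouse symbols matched through the Entrez identifiers of the expression table: B2m, Tap1, Tap2, Tapbp, Psmb8, Psmb9, Psmb10, H2-K1, H2-D1 and Nlrc5. The table held 17571 genes, and 9 of the 10 were among them. Nlrc5 was not analysed here. All 9 had an FPKM (fragments per kilobase of transcript, scaled to the number of mapped reads) of at least 1 in at least 3 libraries and were tested with the 10412 genes that met this filter.

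MHC class I molecules carry peptides from inside the cell to its surface, where cytotoxic T cells read them. The proteasome cuts proteins into peptides, the TAP transporter moves the peptides into the endoplasmic reticulum, and tapasin holds the transporter next to empty class I heavy chains until a peptide fits. Most genes of this route respond to interferons, which also exchange the catalytic subunits of the proteasome for those of the immunoproteasome.

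RNA was sequenced from L929 cells, a fibroblast line from C3H/An mice, in 4 groups of 3 libraries. Cells were given vehicle (DMSO) or 0.5 µM BX795, an inhibitor of the kinase TBK1, for 1 h, and the transfected groups then received the plasmid pEGFP-N1, which expresses EGFP, for 6 h. The groups are named mock (labelled DMSO), pEGFP-N1 (labelled GFP), BX795, and BX795 plus pEGFP-N1, and the labels name no genetic change in any of them. TBK1 acts between the DNA sensor cGAS and type I interferon, so the design asks what plasmid DNA changes and how much of that change remains when the kinase is inhibited. No library analysed here was transfected without the plasmid, so transfection as such and the plasmid cannot be told apart. L929 is a single line with the k haplotype of the MHC, while the authors aligned the reads to the GRCm38 reference, which comes from a strain with the b haplotype. Nothing in the labels says that libraries of a group came from separate cultures, so p-values measure only the spread between these libraries, which may be technical.

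Several libraries stood apart from their label, and every result below is read with that in view. For Ifit1, an interferon-stimulated gene, replicates 1, 2 and 3 had an FPKM of 0.18, 0.20 and 0.20 in mock, 96.7, 0 and 95.2 under pEGFP-N1, 0.45, 0.04 and 0.11 under BX795 and 92.6, 0.17 and 0.57 under BX795 plus pEGFP-N1. Thus pEGFP-N1 replicate 2 lacked the interferon response of the other libraries with its label, and BX795 plus pEGFP-N1 replicate 1 carried it. Isg15 was high in the same 3 libraries, between 129 and 152 FPKM, and between 1.26 and 5.15 FPKM in the other 9. BX795 plus pEGFP-N1 replicate 3 had the lowest sum of FPKM (467348, against 495030 to 513761 in the rest) and the widest spread around the median library (SD 0.30 on the log2 scale, where the lowest was 0.12). The labels were kept, each value is given by library, and the counts are also given without pEGFP-N1 replicate 2 and BX795 plus pEGFP-N1 replicate 1, an alternative chosen after seeing the data. Whether these 2 libraries carry the right labels was not tested, and the group means, the difference between the transfected groups and the interaction all rest on the labels as given. Of 8 fibroblast markers 7 were expressed, and Thy1 was not above 0.13 FPKM. Leukocyte markers did not exceed 0.08 FPKM and epithelial or endothelial markers 0.12 FPKM in any library. Of 5 measured class II genes, H2-Aa, H2-Eb1 and Ciita did not exceed 0.18 FPKM, whereas H2-DMa was at 2.85 to 4.20 FPKM and H2-DMb1 at 5.64 to 9.32 FPKM.

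The DNA just before the start sites gives the setting of these genes. RefSeq promoter entries on GRCm38.p6 were found for 8 of the 10, all but Tap2 and Nlrc5, and the 250 bases before each start were searched on both strands for 4 patterns. They were GAAA, any 2 bases and GAAA (like an interferon-stimulated response element, ISRE), TTC, any 3 bases and GAA (like an interferon-gamma-activated site, GAS), GGG, any 2 bases, T, any base and CCC (like a kappaB site), and CCAAT. Over all promoters of that table, 2.98%, 7.02%, 4.29% and 33.8% of 32851 windows of that length held them. The 30-base windows below hold the ISRE-like, GAS-like and kappaB-like matches in the members and, for comparison, in Irf1, the transcription factor whose pattern was most like that of Tapbp. CCAAT matches are not shown. Each window is printed with the matching letters in capitals.
B2m, ISRE-like, chr2:122147538-122147567, plus strand: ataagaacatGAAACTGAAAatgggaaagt
Psmb8, GAS-like, chr17:34198087-34198116, plus strand: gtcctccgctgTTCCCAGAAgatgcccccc
H2-K1, kappaB-like, chr17:34000447-34000476, minus strand: gtGGGGAAGCCCagggctGGGGATTCCCCa
H2-D1, kappaB-like, chr17:35262905-35262934, plus strand: gtGGGGAAGCCCagggctGGGGATTCCCCa
Irf1, GAS-like, chr11:53769913-53769942, plus strand: aacagcctgatTTCCCCGAAatgatgaggc
Irf1, kappaB-like, chr11:53769984-53770013, plus strand: gtggccgagtccgggccGGGGAATCCCgct

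H2-K1 and H2-D1, the classical heavy chains, held the same 30 bases, each with 3 matches of which 2 overlap in the right-hand stretch. The windows of B2m, H2-K1 and Irf1 lie before the first annotated base of the gene, whereas those of Psmb8 and H2-D1 lie inside annotated exons of transcripts that begin earlier. None of the ISRE-like, GAS-like or kappaB-like letters were found in the windows of Tapbp, Tap1, Psmb9 or Psmb10, which says only that these letters are not there. The searched windows of Tapbp, Tap1 and Psmb9 lie wholly inside annotated exons, of these or of neighbouring genes. That of Tapbp starts at 33919228, past the first annotated base of the gene at 33915899, so the DNA before that base was not searched. CCAAT was present in 6 of the 8, with 1 match shared by the windows of Tap1 and Psmb9, which overlap. Tap1 and Psmb9 are read in opposite directions from start sites with 225 bases between them, at 34187556 and 34187330 on chromosome 17. A match is a description of sequence, and binding was not measured.

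Levels within the route differed widely, and the order of the genes was the same in 12 of 12 libraries. In mock, B2m, the light chain of every class I molecule, was the highest at 605 ± 26.9 FPKM (SD, n = 3). The heavy chains H2-K1 and H2-D1 followed at 262 ± 4.24 and 143 ± 5.37 FPKM (SD, n = 3). Tapbp (tapasin) was at 40.6 ± 1.65 FPKM, Tap2 at 25.6 ± 0.475 FPKM and Psmb8 at 14.2 ± 1.71 FPKM (SD, n = 3). Tap1 was at 9.80 ± 0.491 FPKM, Psmb10 at 8.38 ± 0.866 FPKM and Psmb9 at 3.19 ± 0.107 FPKM (SD, n = 3). In mock no pair of neighbours in this order overlapped, and with BX795 plus pEGFP-N1 Tap1 (11.4 to 13.1 FPKM) and Psmb10 (7.98 to 11.8 FPKM) did. FPKM is per length, but its depth in reads is unknown, so no counting interval is given.

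**Figure D1:**
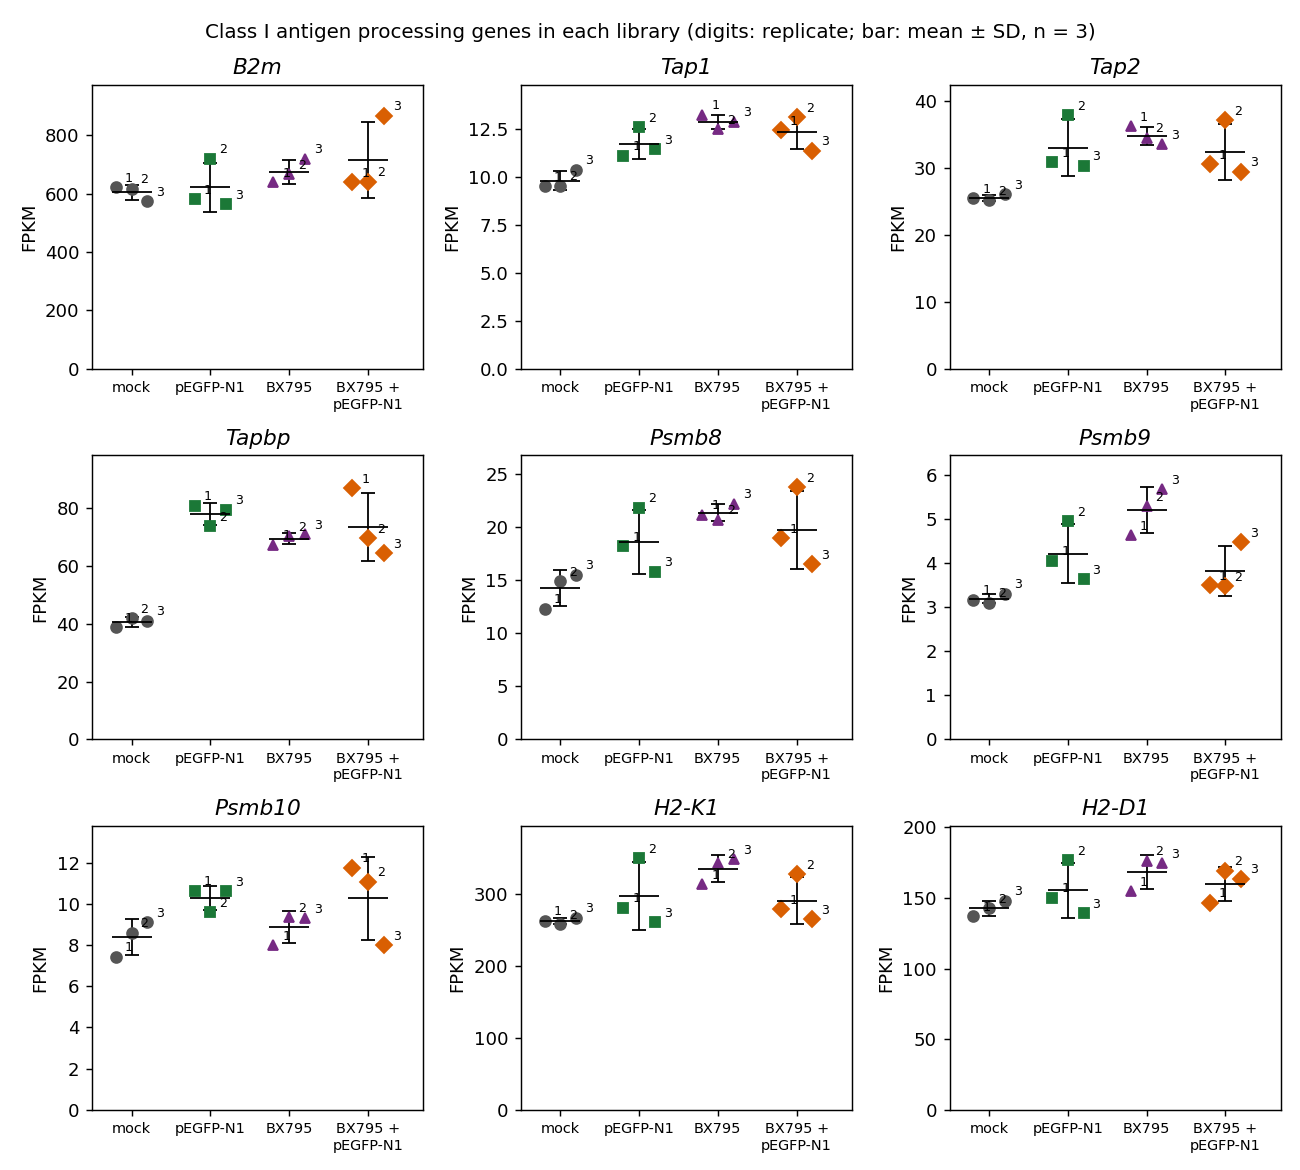
FPKM (linear axes from 0) of the 9 measured genes in each of 12 libraries, with 1 point per library, the replicate number beside it, and the group mean ± SD (n = 3) as a bar. The Tapbp panel shows the widest gap between mock (38.8 to 42.0 FPKM) and the other libraries (64.4 to 87.0 FPKM).

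Tapbp was the member that changed most. Tapasin bridges the TAP transporter and the class I heavy chain and edits the peptide that is loaded. The gene lies on chromosome 17, 33915899 to 33929292 (GRCm38, plus strand). The FPKM of Tapbp was 38.8, 42.0 and 41.1 in the mock libraries, 80.9, 73.8 and 79.6 under pEGFP-N1, 67.4, 70.3 and 71.1 under BX795 and 87.0, 69.6 and 64.4 under BX795 plus pEGFP-N1. Every library outside mock was above every mock library, the lowest of them 1.53 times the highest mock value, and this held with the plasmid, with the inhibitor and with both. The 3 highest values were those of the 3 libraries with high Ifit1, while pEGFP-N1 replicate 2, in which Ifit1 was listed at 0, was at 73.8 FPKM.

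The rise of Tapbp over mock passed the test in each treated group. The log2 fold change, on the log2(FPKM + 1) scale, was 0.93 with pEGFP-N1 (SE 0.094, limma adjusted p = 0.0060), the smallest p of all 10412 genes. It was 0.76 with BX795 (SE 0.094, limma adjusted p = 0.011) and 0.83 with BX795 plus pEGFP-N1 (SE 0.094, limma adjusted p = 0.0060). These 3 comparisons share the mock libraries. The mean of the 3 treated groups was 0.84 above mock (SE 0.077), given with no p because it was known from earlier results of these data that Tapbp was above mock in all other libraries. For the same reason the p-values of the single groups are not independent support for its rise. In bulk RNA a change in the share of expressing cells and a change in RNA per cell cannot be told apart.

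The calls of Tapbp in single groups depended on single libraries. The call with pEGFP-N1 was lost without mock replicate 1 or 3 or without pEGFP-N1 replicate 1 or 3 (log2 fold change 0.89 to 0.97, adjusted p 0.0039 to 0.074 over the 6 fits). The call with BX795 was lost without any of its 6 libraries (0.73 to 0.79, adjusted p 0.059 to 0.091), and the call with both was lost without mock replicate 1 or 3 (0.71 to 0.92, adjusted p 0.0044 to 0.067). In a fit of only mock and BX795 plus pEGFP-N1 the adjusted p was 0.11. With the study's thresholds or with a minimum log2 change of 1, Tapbp was called in no comparison.

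Between the transfected groups the difference of Tapbp was smaller than its changes over mock. BX795 plus pEGFP-N1 minus pEGFP-N1 was -0.09 (95% confidence interval -0.30 to 0.11, limma adjusted p = 0.96). Without pEGFP-N1 replicate 2 and BX795 plus pEGFP-N1 replicate 1 this difference was -0.26 (SE 0.063, adjusted p = 0.018, with 18.1% of all genes called). The interaction, the plasmid effect with BX795 minus the plasmid effect without it, was -0.86 (SE 0.133, limma adjusted p = 0.40), the smallest p of all genes. It was -1.02 without these libraries (adjusted p = 2.92e-05, with 1.27% of all genes called) and -0.98 without BX795 plus pEGFP-N1 replicate 1 alone (adjusted p = 0.0044). A gene raised by a similar amount in each treated group has a negative interaction of about that size. For Tapbp that rise was known beforehand, so nothing is read from its interaction or the p-values.

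**Figure D2:**
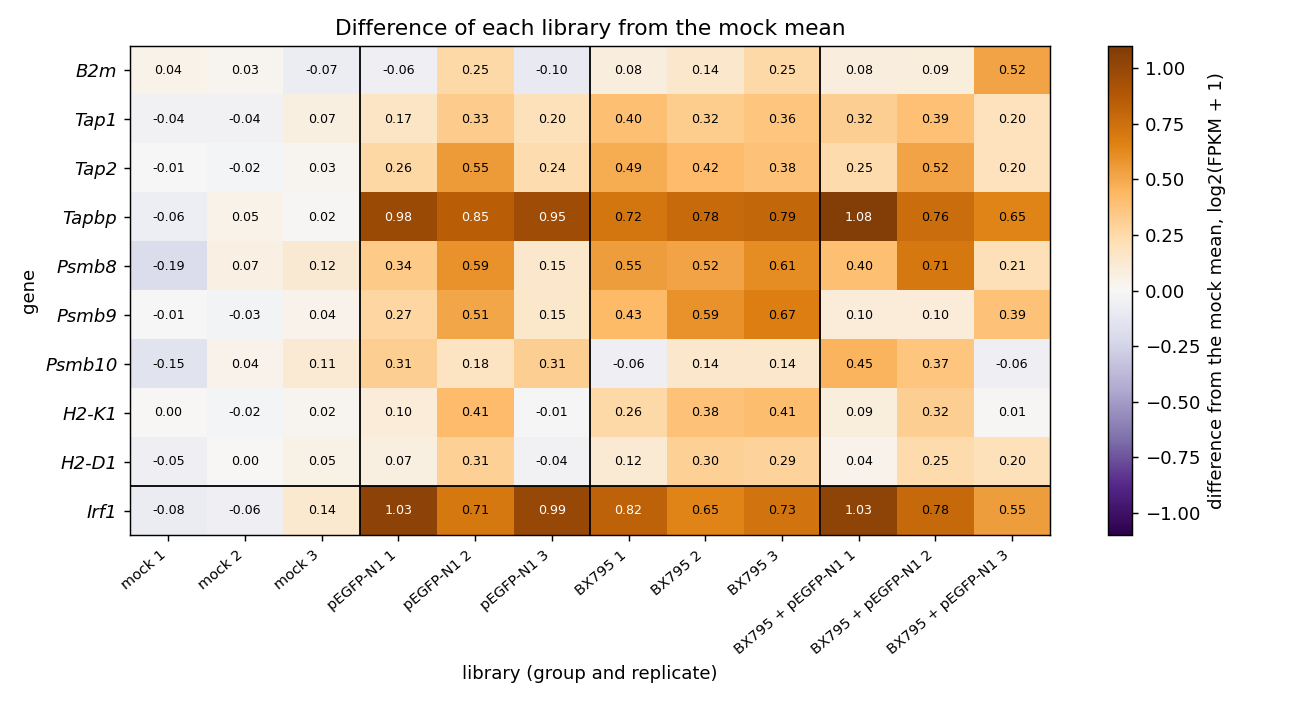
Difference of each library (columns) from the mock mean on the log2(FPKM + 1) scale, for the 9 measured genes and for Irf1 (rows), with orange above and purple below the mock mean. Tapbp and Irf1 are between 0.55 and 1.08 above it in all 9 other libraries, and B2m, H2-K1, H2-D1 and Psmb10 fall below 0 in some of them.

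The transporter subunits were above mock in every other library as well, by less. Tap1 (chromosome 17, 34187553 to 34197225) and Tap2 (34203527 to 34216321) encode the subunits that together form the peptide pump. The FPKM of Tap1 was 9.51, 9.53 and 10.4 in the mock libraries, 11.1, 12.6 and 11.4 under pEGFP-N1, 13.2, 12.5 and 12.9 under BX795 and 12.4, 13.1 and 11.4 under BX795 plus pEGFP-N1. The FPKM of Tap2 was 25.5, 25.2 and 26.1 in the mock libraries, 30.9, 37.9 and 30.4 under pEGFP-N1, 36.3, 34.6 and 33.6 under BX795 and 30.6, 37.2 and 29.5 under BX795 plus pEGFP-N1. Neither gene overlapped between mock and the rest, and their highest libraries were not those with high Ifit1: within pEGFP-N1 the highest value of each was in replicate 2, and within BX795 plus pEGFP-N1 also in replicate 2.

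Neither subunit passed the adjusted threshold in the fit of all groups. Averaged over the treated groups, the change from mock was 0.30 for Tap1 (SE 0.060, limma adjusted p = 0.079) and 0.37 for Tap2 (SE 0.080, limma adjusted p = 0.11). For each gene the two-sided exact permutation test of 9 libraries against 3 gave p = 0.00455, the smallest that 220 arrangements allow, and 3 libraries against 3 cannot go below 0.1. With BX795 the log2 fold changes were 0.36 and 0.43 (limma adjusted p = 0.11 and 0.14). In the fit of only mock and BX795 both were called (limma adjusted p = 0.0031 and 0.00050), as were 12.7% of all genes in the higher direction. Of 15 planned settings this 1 called them, and so did the fit without both libraries that stood apart in their interferon genes, where 14.1% of all genes were called. Few of their 31-base words occur in another gene, 0.825% for Tap1 and 1.34% for Tap2, mostly in each other.

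Of the immunoproteasome subunits, Psmb8 and Psmb9 were above mock in every other library and Psmb10 was not. Psmb8 (chromosome 17, 34197721 to 34201454), Psmb9 (34181987 to 34187764, minus strand) and Psmb10 (chromosome 8, 105935735 to 105938444, minus strand) replace Psmb5, Psmb6 and Psmb7 in the catalytic core. The FPKM of Psmb8 was 12.3, 14.9 and 15.5 in the mock libraries, 18.2, 21.8 and 15.8 under pEGFP-N1, 21.1, 20.7 and 22.2 under BX795 and 19.0, 23.7 and 16.5 under BX795 plus pEGFP-N1. The FPKM of Psmb9 was 3.17, 3.10 and 3.31 in the mock libraries, 4.06, 4.96 and 3.64 under pEGFP-N1, 4.64, 5.30 and 5.68 under BX795 and 3.50, 3.48 and 4.48 under BX795 plus pEGFP-N1. All 9 other libraries were above mock for these genes, but by little at the edge: the lowest was 1.02 times the highest mock value for Psmb8 and 1.05 times for Psmb9.

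The FPKM of Psmb10 was 7.43, 8.60 and 9.12 in the mock libraries, 10.6, 9.60 and 10.6 under pEGFP-N1, 7.99, 9.34 and 9.30 under BX795 and 11.8, 11.1 and 7.98 under BX795 plus pEGFP-N1. Its lowest values with BX795 and with both lay inside the mock range, and its 3 pEGFP-N1 libraries lay above it. Averaged over the treated groups, the log2 fold change over mock was 0.45 for Psmb8 (SE 0.112, limma adjusted p = 0.15), 0.36 for Psmb9 (SE 0.093, limma adjusted p = 0.18) and 0.20 for Psmb10 (SE 0.103, limma adjusted p = 0.60). The two-sided exact permutation tests of 9 libraries against 3 gave p = 0.00455, 0.0227 and 0.127. With BX795 alone Psmb8 and Psmb9 were each 0.56 above mock (limma adjusted p = 0.17 and 0.11). They were called in the fit of only those groups (limma adjusted p = 0.0021 and 0.0017), where 12.7% of all genes were called higher, 1 of 15 and 1 of 14 planned settings, and without both libraries that stood apart. Psmb10 was 0.08 above mock (limma adjusted p = 0.55 in that fit).

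None of their constitutive partners was called. The mean of the treated groups minus mock was -0.06 for Psmb5 (limma adjusted p = 0.95), -0.01 for Psmb6 (0.98) and -0.08 for Psmb7 (0.87). Psmb8 as a percentage of Psmb5 was between 10.5 and 12.6 in mock and between 13.2 and 22.01 in the other 9 libraries, above mock in all 9. The highest ratio, in BX795 plus pEGFP-N1 replicate 3, goes with a Psmb5 of 75.1 FPKM there against 114 to 132 FPKM elsewhere, and without that library the highest was 19.0. Psmb9 as a percentage of Psmb6 was between 2.23 and 2.43 in mock and between 2.47 and 4.31 in the others, again above mock in all 9. Psmb10 as a percentage of Psmb7 was between 2.99 and 3.59 in mock and between 3.23 and 4.63 in the others, above mock in 8 of 9. The ratio to Psmb5 is uncertain because 71.7% of the 31-base words of Psmb5 also occur in other genes, most in Gm3375.

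**Figure D3:**
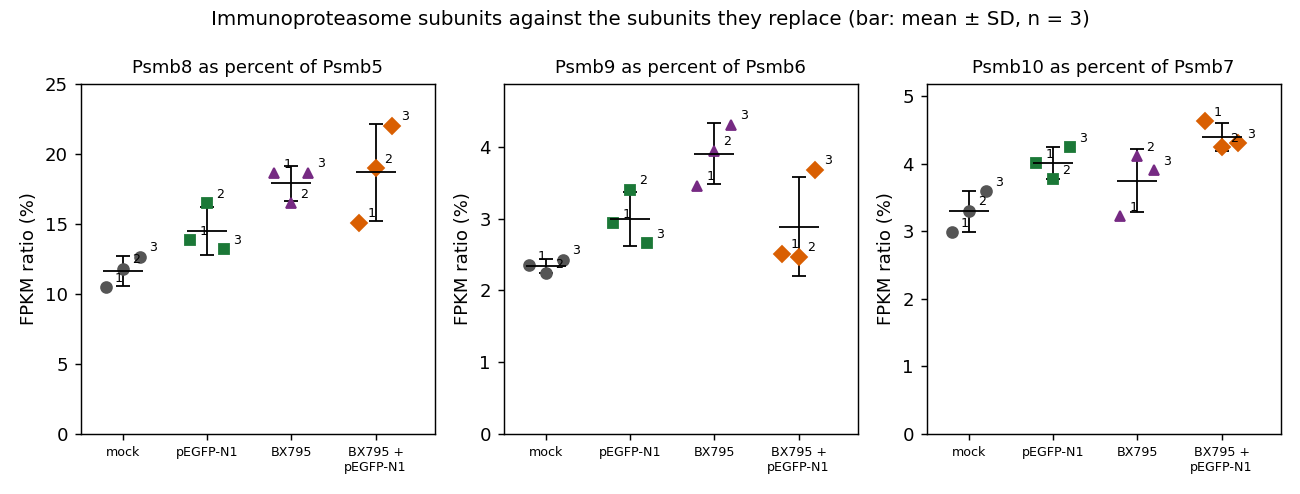
FPKM of each immunoproteasome subunit as a percentage of the subunit it replaces (linear axes from 0), with 1 point per library, the replicate number beside it, and the group mean ± SD (n = 3) as a bar. Psmb8 over Psmb5 and Psmb9 over Psmb6 are above every mock library in all 9 others, and Psmb10 over Psmb7 in 8 of 9.

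The molecules that present the peptide lay closer to mock than the transporter subunits did. H2-K1 (chromosome 17, 33996017 to 34000347, minus strand) and H2-D1 (35262730 to 35267499) are the polymorphic heavy chains. The FPKM of H2-K1 was 262, 258 and 266 in the mock libraries, 280.4, 349 and 260.2 under pEGFP-N1, 313, 342 and 348 under BX795 and 279, 327 and 265 under BX795 plus pEGFP-N1. The FPKM of H2-D1 was 137, 143 and 148 in the mock libraries, 150.2, 176 and 139 under pEGFP-N1, 155, 176 and 174 under BX795 and 147, 169 and 164 under BX795 plus pEGFP-N1. For both genes 7 of 9 other libraries were above the highest mock value, all 3 BX795 libraries were, and pEGFP-N1 replicate 3 was within the mock range. Among the libraries labelled pEGFP-N1 the highest value of each was in replicate 2, which lacked Ifit1.

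For the heavy chains the mean of the treated groups over mock was 0.22 for H2-K1 (SE 0.086, limma adjusted p = 0.44) and 0.17 for H2-D1 (SE 0.075, limma adjusted p = 0.50), with a two-sided exact permutation p of 0.0591 for each. With BX795 they were 0.35 and 0.24 above mock (limma adjusted p = 0.24 and 0.30). They were called in the fit of only those groups (limma adjusted p = 0.0015 and 0.020), where 12.7% of all genes were called higher, 1 of 15 planned settings, and without both libraries that stood apart. These values depend on alignment. Reads of the k alleles had to be placed on b reference sequences, and 22.8% of the 31-base words of H2-K1 and 26.7% of those of H2-D1 also occur in other reference genes, 11.1% and 13.8% in each other. How reads were divided between the heavy chains was not tested.

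B2m lies on chromosome 2, 122147686 to 122153083 (plus strand). Its FPKM was 623, 617 and 574 in the mock libraries, 581, 719 and 563 under pEGFP-N1, 639, 667 and 719 under BX795 and 639, 642 and 868 under BX795 plus pEGFP-N1. Mock and pEGFP-N1 overlapped, and the highest value came from BX795 plus pEGFP-N1 replicate 3, the library that stood apart. The log2 fold change with pEGFP-N1 was 0.03 (SE 0.122, limma adjusted p = 0.9997), and its sign turned with the scaling and with single libraries, to -0.0066 with quantile normalization. For B2m the mean of the treated groups over mock was 0.14 (SE 0.099, limma adjusted p = 0.76; two-sided exact permutation p = 0.245). No 31-base word of B2m occurs in another gene.

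As a group, 9 of 9 measured genes had a positive log2 fold change over mock in each treated group, where 5108, 5924 and 5430 of all 10412 genes had one with pEGFP-N1, BX795 and both. These comparisons share the mock libraries, so a gene's sign in one is not independent of its sign in another. With pEGFP-N1, 1 of 9 was called higher (Tapbp), where 0.0672% of all genes were. The median of the 9 was 0.27 against -0.003 for all genes, and 5 of 9 had an unadjusted p under 0.05 in the higher direction, where 2.57% of all genes did. With BX795, 1 of 9 was called (0.0384% of all genes called higher), the median was 0.36 against 0.03, and 7 of 9 had an unadjusted p under 0.05 (8.45% of all genes). With BX795 plus pEGFP-N1, 1 of 9 was called (0.0576% of all genes), the median was 0.25 against 0.01, and 4 of 9 had an unadjusted p under 0.05 (3.89% of all genes). For the mean of the treated groups 0.134% of all genes were called higher and 1 of 9 members, Tapbp, whose position above mock was known beforehand, so nothing is read from that count or from the calls of Tapbp in the single groups. The members had a median of 0.30 against 0.01 for all genes, and 7 of 9 had an unadjusted p under 0.05 (4.8% of all genes). The sign counts, medians and unadjusted counts of the 9 all include Tapbp and were not worked out without it. To that extent they repeat what was known beforehand.

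Without pEGFP-N1 replicate 2 and BX795 plus pEGFP-N1 replicate 1, the mean of the treated groups over mock was called for 5 of 9, Tap1, Tap2, Tapbp, Psmb8 and Psmb9, with 6.21% of all genes called in either direction. In that fit BX795 minus mock was called for 7 of 9, with 14.1% of all genes, and BX795 plus pEGFP-N1 minus mock for Tap1, Tap2 and Tapbp, with 8.91% of all genes. There pEGFP-N1 minus mock was called for no member but Tapbp, with 3.76% of all genes. The group means of mock and BX795 hold no library that stood apart in its interferon genes. In the fit of all groups, however, the spread came from every library, those 2 included. For BX795 minus mock the SE of Tap2 was 0.0985 in that fit, 0.0746 without both libraries and 0.0458 on the mock and BX795 libraries alone. Fitted on those 6 libraries alone, BX795 minus mock also called 7 of 9 higher, all but B2m (limma adjusted p = 0.068) and Psmb10 (0.55), where 12.7% of all genes were called higher. Left out in turn from the fit of all groups, each of the 6 mock and BX795 libraries gave 0 of 9 called for BX795 minus mock. No transfected library was left out alone for this comparison.

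**Figure D4:**
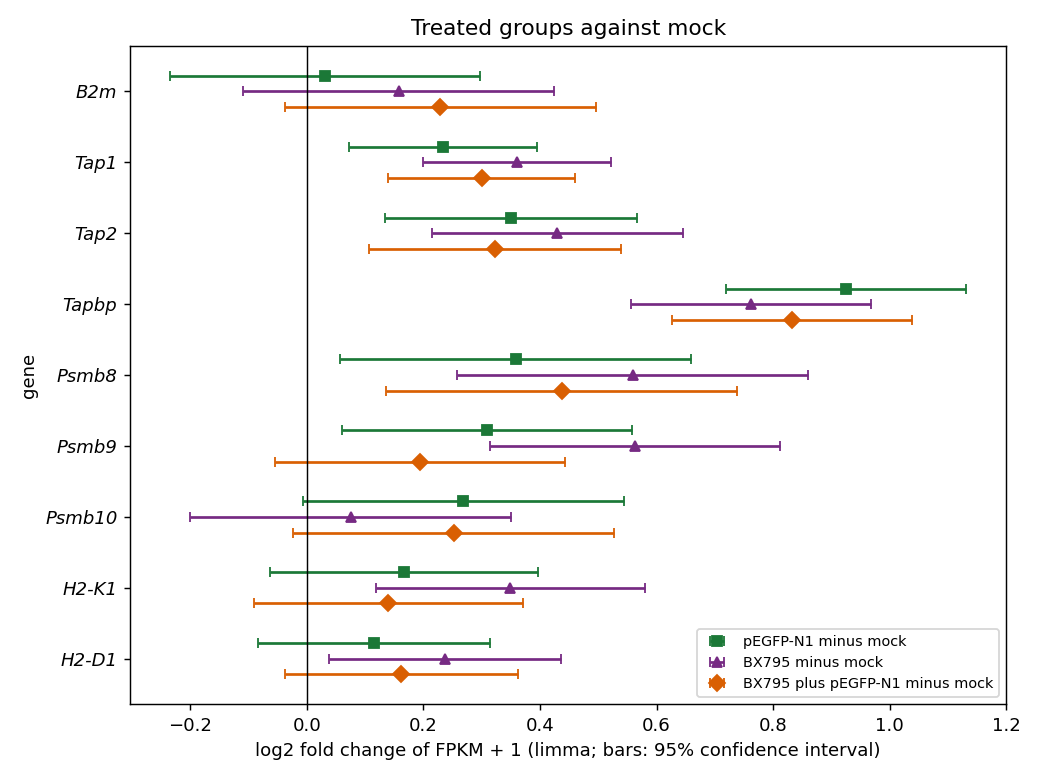
Log2 fold change over mock of the 9 measured genes (rows) in the 3 treated groups, on the log2(FPKM + 1) scale from limma on 12 libraries, with 95% confidence intervals as bars. The intervals of Tapbp lie between 0.56 and 1.13 in all 3 comparisons and do not meet those of B2m, while B2m and Psmb10 have intervals that include 0 in each.

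In the fit of all 12 libraries no member was called between the transfected groups, BX795 plus pEGFP-N1 minus pEGFP-N1. The differences ran from -0.11 (Psmb9) to 0.20 (B2m), 4 higher and 5 lower, with a median of -0.02. By limma 0 of the 9 and 0% of all genes were called. At an unadjusted p under 0.05 there were 0 of the 9 and 166 of all genes (1.59%). The 95% confidence intervals of the 9 reached from -0.36 to 0.46, so differences of that size are not excluded. Without pEGFP-N1 replicate 2 and BX795 plus pEGFP-N1 replicate 1, 2 of the 9 were called, B2m at 0.38 (limma adjusted p = 0.046) and Tapbp at -0.26, with 18.1% of all genes. In the interaction 8 of 9 were negative, with a median of -0.38 against -0.02 for all genes. By limma 0 of the 9 and 0% of all genes were called, and 6 of 9 had a negative difference at an unadjusted p under 0.05, where 2.4% of all genes did. This contrast shares its libraries with each of the comparisons over mock. It is negative for a gene raised alike in each treated group, so these counts are not independent of the rises over mock, that of Tapbp included.

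The genes were also read by library rather than by group. All 9 other libraries lay above the highest mock value for Tapbp, which was known from earlier results, and for 4 of the 8 remaining members (Tap1, Tap2, Psmb8 and Psmb9), where 1.93% of all genes did (201 genes) and 2.23% lay below the lowest mock value in all 9. By the ratio of the lowest other library to the highest mock library, Tapbp was 8 of 201, Tap2 (1.13) 46 of 201, Tap1 (1.07) 73 of 201, Psmb9 92 of 201 and Psmb8 157 of 201. In 1 of 9, Tapbp, the 3 highest libraries were those of Ifit1, and 10.02% of all genes had that property, so that the share of the members was near that of all genes. Both properties together were met by 30 genes.

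**Figure D5:**
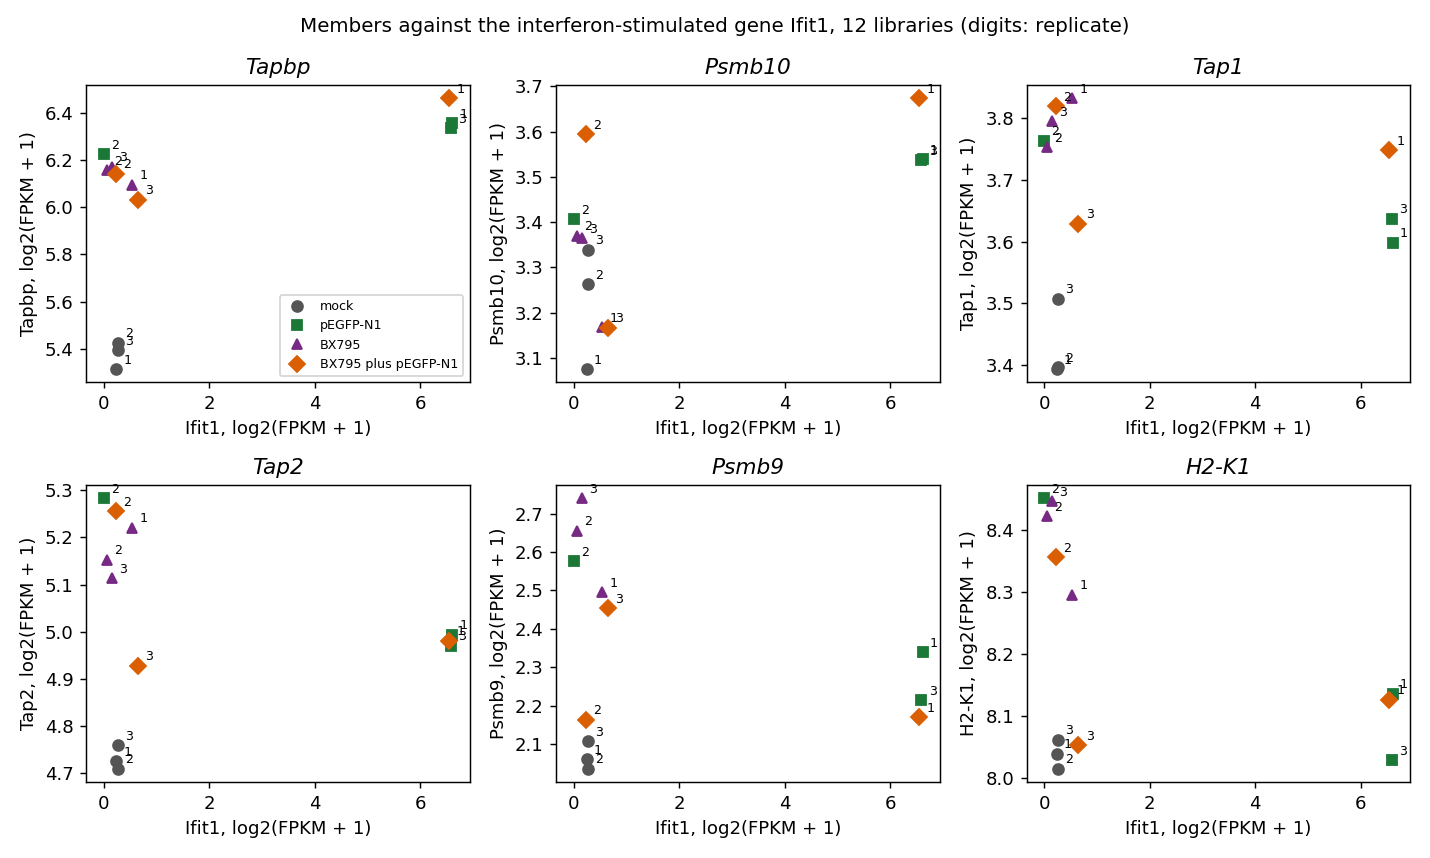
Level of 6 members (vertical axes, log2(FPKM + 1), not from 0) against Ifit1 (horizontal axes, log2(FPKM + 1)) in 12 libraries, with the replicate number beside each point. The 3 libraries with high Ifit1 hold the 3 highest values of Tapbp, and for Tap1, Tap2, Psmb9 and H2-K1 the highest values are among libraries with low Ifit1. For Psmb10 the highest value is in a library with high Ifit1, and BX795 plus pEGFP-N1 replicate 2, with low Ifit1, comes next.

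The median difference of the 9 genes from the mock mean was 0.26, 0.41 and 0.15 in pEGFP-N1 replicates 1, 2 and 3, and 0.40, 0.38 and 0.38 with BX795. With BX795 plus pEGFP-N1 it was 0.25, 0.37 and 0.20. Within pEGFP-N1 the replicate without Ifit1 was the highest, and within BX795 plus pEGFP-N1 the replicate with high Ifit1 was not.

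Of the listed regulators of class I genes, Irf1 was called in the mean of the treated groups over mock. It is a transcription factor induced by interferons and by NF-kappaB. Its FPKM was 12.7, 12.9 and 14.9 in the mock libraries, 28.7, 22.7 and 27.8 under pEGFP-N1, 24.6, 21.7 and 23.01 under BX795 and 28.6, 23.9 and 20.2 under BX795 plus pEGFP-N1. Every other library was above mock, and the highest 3 were those with high Ifit1. The mean change was 0.81 (SE 0.101, limma adjusted p = 0.0078). Stat2, a part of the complex that type I interferon activates, stood at 21.1, 20.6 and 19.5 FPKM in the 3 libraries with high Ifit1, between 6.75 and 8.05 FPKM in the other 6 and between 5.12 and 5.87 FPKM in mock (mean change 0.79, SE 0.325, limma adjusted p = 0.47).

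Irf1 was also the gene most like Tapbp. Likeness was measured as the cosine of the differences from the mock mean over 9 libraries, on the log2(FPKM + 1) scale, and is a description without a test. Among the 5 nearest of all tested genes were Irf1 (0.995), Slpi (0.990), Cilk1 (0.988) and Fbln5 (0.984). For Psmb9 the 5 nearest were Trim68 (0.981), Fbxl4 (0.977), Snapc5 (0.973), Gm4791 (0.973) and Gatd3a (0.971), and none was shared with Tapbp. All genes in a library share its depth and composition.

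Other steps of the route had no called gene in the mean of the treated groups over mock. Of 11 other core subunits of the proteasome 1 was higher and 10 lower, with a median of -0.06 and Psma3 (-0.14), Psma5 (-0.11) and Psma7 (-0.07) the largest. Among 7 regulators and assembly factors, the subunits of the PA28 activator Psme2 (0.29, limma adjusted p = 0.26) and Psme1 (0.23, limma adjusted p = 0.21) were the largest and Psme4 followed at -0.05. Of 13 genes of peptide trimming and loading 4 were higher and 9 lower, with a median of -0.05. Calr, Canx and Hspa5 lay below the lowest mock value in all 9 other libraries, and Erap1 lay above the highest in all 9. Of all genes, 2.23% lay below in all 9 and 1.93% above. The largest were Tapbpl, a relative of tapasin (0.50, limma adjusted p = 0.24), the chaperone Hspa5 (-0.33, limma adjusted p = 0.26) and the trimming peptidase Erap1 (0.24, limma adjusted p = 0.36). The FPKM of Tapbpl was 3.46, 3.88 and 3.65 in the mock libraries, 3.60, 6.62 and 4.57 under pEGFP-N1, 6.06, 6.61 and 7.21 under BX795 and 4.44, 7.10 and 5.05 under BX795 plus pEGFP-N1, so that replicate 2 was the highest of each transfected group.

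Among the nonclassical class I genes, the 3 with the largest change differed in which libraries were high. Of 8 tested, 7 were higher and 1 lower in the mean of the treated groups over mock, with a median of 0.27 and none called. The FPKM of H2-T24 was 0.67, 0.64 and 0.97 in the mock libraries, 4.52, 0.88 and 4.01 under pEGFP-N1, 0.34, 0.57 and 0.67 under BX795 and 4.53, 0.52 and 15.6 under BX795 plus pEGFP-N1. It was high in the 3 libraries with high Ifit1 and highest in BX795 plus pEGFP-N1 replicate 3, where Ifit1 was at 0.57 FPKM (mean change 0.82, SE 0.541, limma adjusted p = 0.73). The FPKM of H2-Q4 was 51.0, 51.7 and 53.4 in the mock libraries, 56.9, 82.9 and 55.8 under pEGFP-N1, 75.6, 78.3 and 85.7 under BX795 and 57.9, 78.4 and 64.4 under BX795 plus pEGFP-N1. It was above mock in all 9 other libraries and lower in the 3 with high Ifit1 than in the other 6 (mean change 0.42, SE 0.116, limma adjusted p = 0.21). The FPKM of H2-T22 was 6.98, 6.97 and 7.52 in the mock libraries, 11.8, 9.74 and 10.9 under pEGFP-N1, 7.35, 9.45 and 9.65 under BX795 and 9.96, 9.28 and 6.18 under BX795 plus pEGFP-N1. Its 3 highest libraries were those with high Ifit1, but 4 libraries with low Ifit1 were above the mock range too (mean change 0.33, limma adjusted p = 0.40). Of the 31-base words, 38.4% in H2-Q4, 51.0% in H2-T22 and 6.43% in H2-T24 also occur in other genes.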

How the data were processed

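RNA of 12 L929 libraries was sequenced on a BGISEQ-500. The authors aligned reads to GRCm38.p5 with Bowtie2 2.2.5 and estimated FPKM with RSEM, and the deposited values are FPKM rounded to 2 decimals. Read totals and depth are unknown from FPKM: of 5464 low values, 53.3% lay within 0.1 of a whole multiple of the gene's smallest, so whole reads were not recovered. Of 17571 Entrez identifiers, 17450 were named through the RefSeq table. No 2 libraries held identical values.

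log2(FPKM + 1) was tested with limma 3.58.1 (R 4.3.3; 4 group means, trend, Benjamini-Hochberg adjustment over 10412 genes), and a call is an adjusted p under 0.05 of any size. The study's test needs read counts, which FPKM does not keep. Single genes were compared by two-sided exact permutation tests (Python 3.11.15, scipy 1.17.1). The script was tested on simulated data. Coordinates are from a GENCODE annotation of GRCm38, and shared 31-base words were counted in its transcripts. The named genes are the members, the constitutive subunits, Ifit1 and Isg15, from each other list the called genes and the 3 with the largest change, and the 5 genes most like Tapbp and Psmb9. Thy1 and the class II genes are from the marker lists. Calr and Canx are named for their place below mock in every other library. A result that this rule would name is not reported here. The members and lists were chosen with earlier results of these data known. Alternatives were a pseudocount of 0.1, no filter, a mean FPKM of at least 5, rescaling to TPM, the 75th percentile, quantile normalization, no trend and the replicate block. Further ones were only the groups compared and each library of the compared groups left out. The last were the study's thresholds (FDR at most 0.001, absolute log2 change at least 2) and a minimum log2 change of 1.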

Additional observations from a re-analysis of the deposited data

Results flagged for a closer look

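Psmb9 was the only one of the 9 members in which the plasmid effect ran in opposite directions without and with BX795 in every library. By group means the effect was also positive without BX795 and negative with it for Tap1, Tap2, Psmb8, H2-K1 and H2-D1. For Psmb9, all 3 pEGFP-N1 libraries (4.06, 4.96 and 3.64 FPKM) were above the mock mean of 3.19 FPKM, and all 3 libraries with BX795 plus pEGFP-N1 (3.50, 3.48 and 4.48 FPKM) were below the BX795 mean of 5.21 FPKM. The difference between the effects was -0.68 on the log2(FPKM + 1) scale (SE 0.161, limma adjusted p = 0.84) and did not pass the test. The same arrangement was found in 201 of 10412 genes (1.93%). Without pEGFP-N1 replicate 2 and BX795 plus pEGFP-N1 replicate 1 the difference was -0.53 (adjusted p = 0.21).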

How the results depend on the processing

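The limits are 3 libraries a group, an unknown depth, libraries whose interferon genes go against their label, and MHC reads of another haplotype. Scalings moved the median of all genes for the mean of the treated groups only between -0.01 and 0.02. Of the single-gene values under the alternatives, 485 kept their direction and side of the threshold, 15 gained a call and 13 lost it. The sign turned for B2m with pEGFP-N1, to -0.0066 with quantile normalization, and ran between -0.079 and 0.098 with libraries left out in turn (-0.0059 without mock replicate 3, -0.079 without pEGFP-N1 replicate 2), and was -0.079 without both libraries that stood apart. It turned for Psmb10 with BX795 (-6.66e-05 without mock replicate 1, range up to 0.14).

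For pEGFP-N1 over mock, 7 genes were called, 2 without the filter, 4 with only the groups compared, 4 with a 2-fold minimum (an absolute log2 change of 1 or more), and 0 to 17 with a library left out (17 without pEGFP-N1 replicate 2), with 0 to 1 of the 9 members. For BX795 over mock, 7 genes were called, 2150 with only the groups compared (7 members), 3 with a 2-fold minimum, and 0 to 3 with a library left out, with 0 members. For BX795 plus pEGFP-N1 over mock, 11 genes were called, 6 with the 75th percentile, 6 with the replicate block, 6 with only the groups compared (0 members), 3 with a 2-fold minimum, and 1 to 131 with a library left out (131 without BX795 plus pEGFP-N1 replicate 1), with 0 to 1 members. For BX795 plus pEGFP-N1 over pEGFP-N1, 2 genes were called without the filter. For the interaction 1 was called without the filter, and 0 to 1 with a library left out, with 0 to 1 members (1 gene, Tapbp, without BX795 plus pEGFP-N1 replicate 1). For the mean of the treated groups 27 genes were called, 4 with a 2-fold minimum, and 3 to 137 with a library left out (137 without BX795 plus pEGFP-N1 replicate 1), with 1 to 2 members (Tap1 beside Tapbp without BX795 plus pEGFP-N1 replicate 1 or 3). The 2-fold minimum left 0 members called in each comparison, and the study's thresholds left 0 genes and 0 members. Why these counts moved was not tested, except that a fit of fewer groups has its own spread.

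Without both libraries that stood apart, chosen after seeing the data, 391 genes were called for pEGFP-N1 over mock, with Tapbp the only member. That fit called 928 (3 members) for both over mock and 1886 (2 members, B2m higher and Tapbp lower) for both over pEGFP-N1. It called 132 (1 member) for the interaction and 647 (5 members) for the mean of the treated groups. Replicate numbers did not pair the libraries: deviations from group means correlated at a mean r of 0.12 for equal numbers (6 of 18 pairs over 0.1) and -0.07 for different numbers. With the replicate block 5, 7, 6, 0, 0 and 33 genes were called in the 6 comparisons in the order above, and Tapbp stayed called over mock in each treated group (block adjusted p = 0.012, 0.027 and 0.015).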
